A study of Homo sapiens with 17 samples.

Results

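The mRNAs described here encode the machinery that makes mRNA 3' ends and the RNA exosome with its nuclear adaptors. They were chosen by gene symbol, and all 39 listed symbols were found among the 18869 genes of the table, 19 for cleavage and polyadenylation factors and 20 for the exosome and its adaptors. The values came from HEK293T cells, an established human line of embryonic kidney origin, carrying a doxycycline-inducible construct integrated in the genome. In RPS2-STAMP cells the construct encoded the ribosomal protein RPS2 joined to APOBEC1, an enzyme that edits C to U, so that edits marked mRNAs that ribosomes had contacted, and in Control-STAMP cells it encoded APOBEC1 alone. Both lines were treated with 50 ng/ml doxycycline for 24 h and crosslinked with 0.1% formaldehyde, and RNA was sequenced from the lysate (Input) and from immunoprecipitates (IPs) of PABPC and PABPN, the mainly cytoplasmic and the mainly nuclear poly(A)-binding protein. RPS2-STAMP Input, RPS2-STAMP IP PABPC and RPS2-STAMP IP PABPN had 3 samples each, as did Control-STAMP Input and Control-STAMP IP PABPN, and Control-STAMP IP PABPC had 2. The paper describes the lysate as cytoplasmic, and the sample labels name no fractionation.

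Cleavage and polyadenylation specificity factor (CPSF) reads the poly(A) signal and cuts the nascent transcript, cleavage stimulation factor (CstF) and the cleavage factors CFIm and CFIIm bind around the cut site, and poly(A) polymerase adds the tail that PABPN and then PABPC coat. The exosome is a barrel of catalytically inactive subunits with a cap that threads RNA, joined to separate nucleases, and in the nucleus the helicase MTREX and RNA-binding adaptors bring it polyadenylated and capped transcripts. PABPN itself stimulates tail synthesis and is known to take part in nuclear RNA decay, processes in which these factors act.

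The signal that CPSF recognises was looked for in the mRNAs of its own machinery. In the last 50 bases of the annotated canonical transcript, AATAAA was present in 27 of the 39 mRNAs, ATTAAA without AATAAA in 4, and neither hexamer in 8. Among the 38 mRNAs retained by the abundance filter described next, AATAAA was found in 71.1%, against 66.6% of 9605 protein-coding genes (PCGs) found in the annotation. Windows of 30 bases are shown for mRNAs at both ends of the partition between the PABPC IP and the PABPN IP, with the hexamer in capitals. Each lies in the last exon at the 3' end of the mRNA (hg38, GENCODE release 44) and reads 5' to 3' on the gene's strand. RBBP6, PCF11, ZCCHC8 and CSTF2T leaned to the PABPN IP, and RBM7, NUDT21, NCBP2 and EXOSC5 to the PABPC IP.
RBBP6, chr16:24572824-24572853, plus strand: ctttttgattacAATAAAagttttcagtaa
PCF11, chr11:83185761-83185790, plus strand: attcatacatgtAATAAAtagaatgatgaa
ZCCHC8, chr12:122471605-122471634, minus strand: gcttaagttcaaAATAAAagcaatccttta
CSTF2T, chr10:51695491-51695520, minus strand: tttcatgcagaaAATAAAgatacaattaag
RBM7, chr11:114410573-114410602, plus strand: gtcactcgcctgAATAAAgcttcagtggcc
NUDT21, chr16:56429138-56429167, minus strand: tattgtcatttcAATAAAaaatatttgaaa
NCBP2, chr3:196935409-196935438, minus strand: gtaataggtttcAATAAAgctggatgaact
EXOSC5, chr19:41386376-41386405, minus strand: aatggatgaatcAATAAAttaattcacttt
These 8 were taken from mRNAs that have either hexamer, so the windows show the sequence around it and not how often it occurs on either side. EXOSC4, with the next highest ratio after EXOSC5, also has AATAAA and is not shown.

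Abundance was taken as TPM, a transcript count scaled by length and library size, deposited as 1 average per gene and fraction, with exonic and intronic reads both counted. The values are pooled over replicates, so they carry no SD, n or p-value, and no difference between fractions was checked against replicate error. Genes that reached a TPM of 5 in each IP were compared, which kept 9607 PCGs and 38 of the 39 mRNAs. ZFC3H1, a scaffold of the poly(A) tail exosome targeting connection, missed the filter with a TPM of 4.64 in the PABPC IP. The median PCG had a log2 ratio of 1.14 in the PABPN IP over Input, 0.99 in the PABPC IP over Input and -0.19 in the PABPC IP over the PABPN IP. Every log2 ratio below is relative to that median gene, and a ratio past 0.5 in either direction was called. A value given as with PABPC or with PABPN is that of the respective IP. In bulk RNA, fewer cells containing an mRNA and less of it per cell cannot be told apart.

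Relative to other PCGs, members of both groups were low in the PABPC IP. Below -0.5 in the PABPC IP over Input were 20 of 38 mRNAs, against 18.1% of PCGs, and above 0.5 was none of the 38, against 8.37% of PCGs. The 20 comprised 12 of 19 3' end processing mRNAs and 8 of 19 exosome and adaptor mRNAs. The groups' medians were -0.65 and -0.33, a difference of -0.32, which turned to 0.03 as distance from the coding-length line described below. The members' median log2 ratio was -0.54, and it was 0.45 before the median gene was subtracted, so the direction is relative to other PCGs and turns without that centring. Uncentred, 18 mRNAs lay above 0.5 and 0 below -0.5 in the PABPC IP over Input, against 81.3% and 0.885% of PCGs. In the PABPN IP over Input the members spread to both sides, with 7 of 38 above 0.5, against 24.5% of PCGs, and 6 below -0.5, against 21.6% of PCGs. Their median there was -0.02, next to that of the median gene. The groups' medians were 0.04 for 3' end processing and -0.20 for the exosome and adaptors, a difference of 0.24, which turned to -0.29 as distance from that line. Uncentred, 33 lay above 0.5 and 0 below -0.5, against 84.6% and 0.583% of PCGs.

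The IPs were then compared directly, a comparison that shares each IP with the ratios to Input. Below -0.5 in the PABPC IP over the PABPN IP, which is the PABPN side, were 20 of 38 mRNAs, against 31.5% of PCGs. This count depended on the filter, which also sets the median gene that is subtracted. With the limit lowered to 1 TPM it was 15, against 33.2% of PCGs, and with every gene above 0 TPM it was 13 of 39, against 34.2%, a share near the background. On the other side 5 mRNAs lay above 0.5, against 30.4% of PCGs. The members' median log2 ratio was -0.53, and it kept its sign without centring, at -0.72. Uncentred, 23 lay below -0.5 and 3 above 0.5, against 37.6% and 23.0% of PCGs. The medians of the groups differed by 0.02, with -0.52 for 3' end processing and -0.53 for the exosome and adaptors. This difference was 0.20 without CSTF2T and PAPOLG, 0.24 as distance from the coding-length line described below, and turned to -0.28 when means were taken. The quartiles were -1.07 and 0.21 for 3' end processing and -0.91 and 0.40 for the exosome and adaptors, so the groups overlapped over most of their range. Of the 5 mRNAs on the PABPC side, 4 belonged to the exosome and adaptors.

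**Figure D1:**
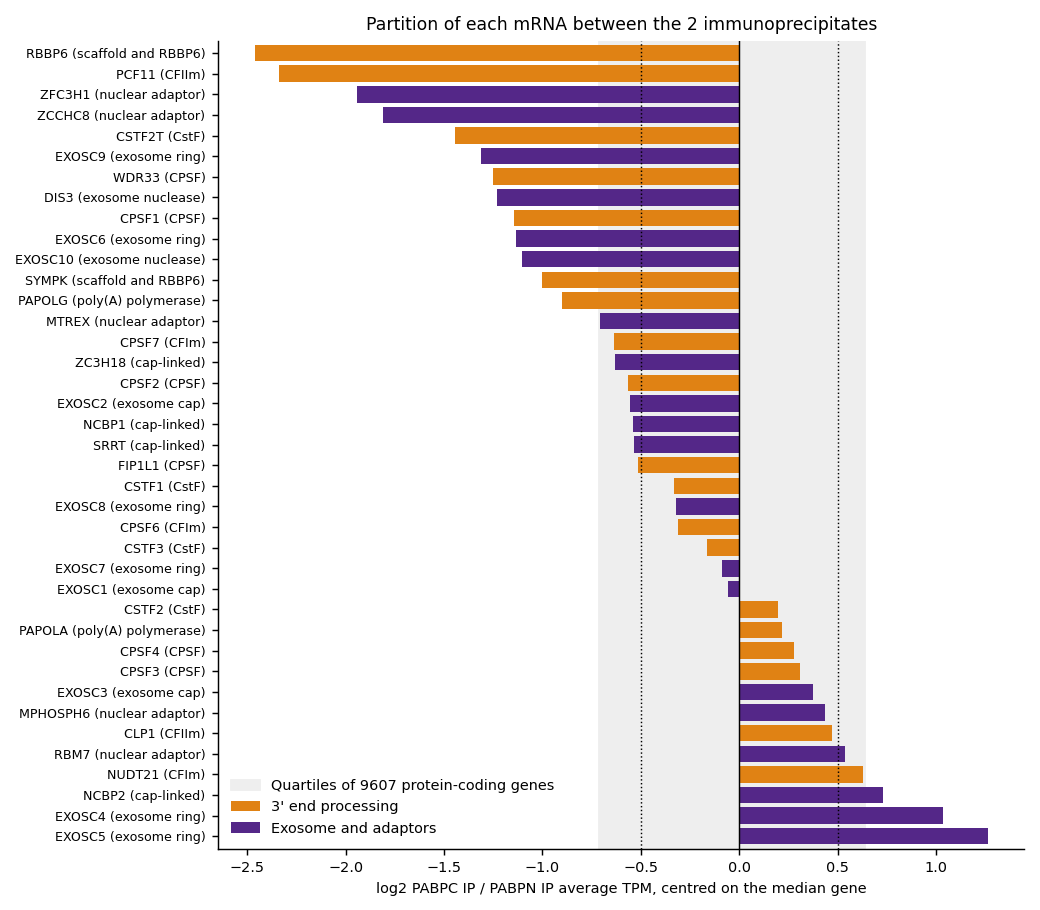
Log2 ratio of average TPM in the PABPC IP over the PABPN IP for each of the 39 mRNAs, relative to the median PCG, with bars coloured by group, dotted lines at -0.5 and 0.5, and the grey band spanning the quartiles of 9607 PCGs. RBBP6 lies lowest at -2.46 and EXOSC5 highest at 1.26, and bars of both groups occur on both sides.

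CPSF holds the endonuclease and the subunits that read the poly(A) signal, and its 6 mRNAs did not move as a unit. CPSF1, which encodes the large scaffold subunit, had a TPM of 34.5 in Input, 53.4 with PABPC and 135 with PABPN, and its log2 ratio between the IPs was -1.14. WDR33, a subunit that contacts the signal itself, had a TPM of 12.2 in Input, 11.8 with PABPC and 32.2 with PABPN, with a ratio between the IPs of -1.25. Both were far more abundant with PABPN than with PABPC. CPSF3, the endonuclease, had a TPM of 31.9 in Input, 48.4 with PABPC and 44.7 with PABPN. CPSF4, the zinc-finger subunit that reads the signal beside WDR33, had a TPM of 24.7 in Input, 59.2 with PABPC and 55.9 with PABPN. The endonuclease and the zinc-finger subunit thus lay slightly to the PABPC side, with log2 ratios between the IPs of 0.31 and 0.28. CPSF2, the inactive relative of the endonuclease, had a log2 ratio between the IPs of -0.57. FIP1L1, which tethers poly(A) polymerase, had one of -0.52, just past the threshold. The split was different as distance from the coding-length line described below. On that scale CPSF3 lay at 0.75 and CPSF4 at -0.04, with CPSF1 at -0.10, WDR33 at -0.27, CPSF2 at -0.02 and FIP1L1 at -0.19.

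The lowest partition of all belonged to RBBP6, a large RING-finger protein that activates cleavage. Its log2 ratio between the IPs, -2.46, lay at percentile 0.854 of the 9607 PCGs. The TPM of RBBP6 was 10.4 in Input, 11.8 with PABPC and 74.2 with PABPN. In Input this was below the PCG median of 15.8 but above the lower quartile of 8.09. With PABPC it was below the lower quartile of 13.6, and with PABPN just above the upper quartile of 73.1. SYMPK, which encodes the scaffold symplekin, had a TPM of 21.8 in Input, 27.1 with PABPC and 62.1 with PABPN, with a log2 ratio between the IPs of -1.001. The distance of SYMPK from the coding-length line described below was -0.06.

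CstF binds the GU-rich element downstream of the cut, and its RNA-binding subunit is encoded by a pair of paralogues. CSTF2 had a TPM of 30.8 in Input, 41.3 with PABPC and 41.2 with PABPN. CSTF2T had a TPM of 16.8 in Input, 19.0 with PABPC and 59.1 with PABPN. The paralogues parted, with log2 ratios between the IPs of 0.20 for CSTF2 and -1.45 for CSTF2T. CSTF2T has 1 exon and CSTF2 has 14, and exonic and intronic reads were not separated here. The whole of CSTF2T lies opposite to PRKG1, on the other strand, and the effect of that overlap on its reads was not tested. The WD-repeat subunit CSTF1 and the scaffold CSTF3 lay between them, at -0.33 and -0.17.

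CFIm binds UGUA elements upstream of the cut and influences which poly(A) site is used. NUDT21, its RNA-binding subunit, had the highest Input TPM among the 3' end processing mRNAs, 72.5, and its TPM was 154 with PABPC and 114 with PABPN. It was the only one of the 19 above 0.5 between the IPs, at 0.63. Its partner subunits CPSF6 and CPSF7 lay on the other side, at -0.31 and -0.64. Measured from the coding-length line described below, NUDT21, CPSF6 and CPSF7 lay at 0.18, -0.05 and -0.51. CPSF7 reached a TPM of 157 in the PABPN IP, against 88.3 in the PABPC IP and 47.1 in Input.

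CFIIm consists of PCF11 and CLP1, and their mRNAs stood far apart. PCF11, which links cleavage to the RNA polymerase II tail and to termination, had a TPM of 9.27 in Input, 8.44 with PABPC and 48.8 with PABPN. CLP1, an RNA kinase, had a TPM of 16.9 in Input, 24.0 with PABPC and 19.8 with PABPN. Their log2 ratios between the IPs were -2.34 and 0.47, so the subunits of 1 complex lay at the low end of the list and on the PABPC side. CLP1 also had the lowest PABPN IP over Input ratio of all 38 mRNAs, -0.91, and RBBP6 and PCF11 had the highest, 1.70 and 1.26.

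The poly(A) polymerases showed a similar split between paralogues. PAPOLA, the main nuclear enzyme, had a TPM of 51.6 in Input, 122 with PABPC and 120 with PABPN. PAPOLG, its less abundant paralogue, had a TPM of 7.84 in Input, 9.20 with PABPC and 19.7 with PABPN. The log2 ratios between the IPs were 0.22 and -0.90. PAPOLA and CPSF4 had the highest PABPC IP over Input ratios among the 3' end processing mRNAs, 0.25 and 0.27.

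**Figure D2:**
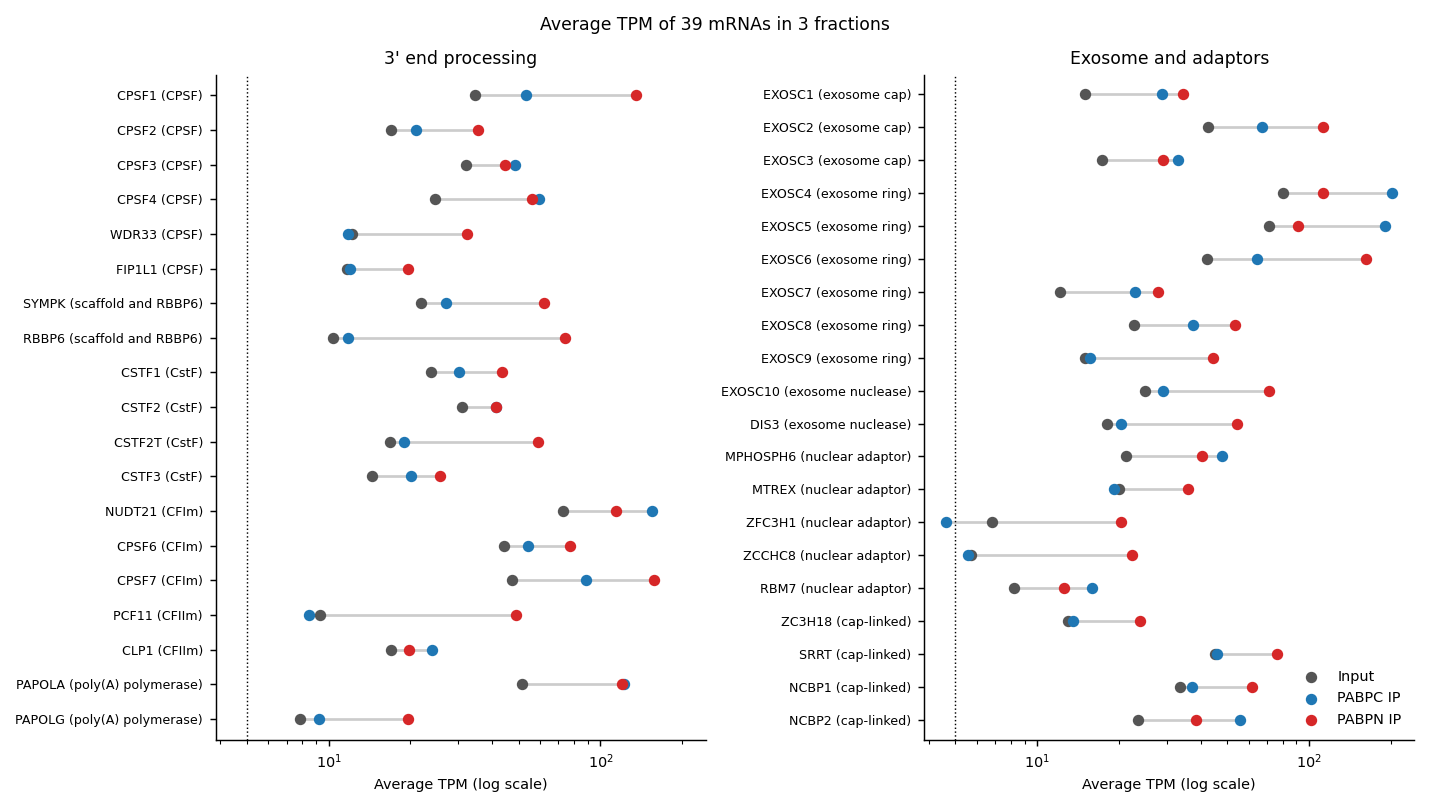
Average TPM of each of the 39 mRNAs on a log axis in Input (grey), the PABPC IP (blue) and the PABPN IP (red), with 3' end processing on the left and the exosome and adaptors on the right, a grey line joining the lowest and highest fraction, and a dotted line at a TPM of 5. The red point lies far to the right of the others for RBBP6, PCF11 and ZCCHC8, whereas the blue point is rightmost for EXOSC4 and EXOSC5.

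The exosome core is built from 1 copy of each of its subunits, yet the core mRNAs spanned a wide range. The cap subunits EXOSC1, EXOSC2 and EXOSC3, which bind incoming RNA, had log2 ratios between the IPs of -0.06, -0.56 and 0.37. Among the ring subunits, EXOSC4 had a TPM of 80.4 in Input, 202 with PABPC and 113 with PABPN. EXOSC5 had a TPM of 71.4 in Input, 191 with PABPC and 91.0 with PABPN. These ring mRNAs lay furthest to the PABPC side of all 38, with log2 ratios between the IPs of 1.03 and 1.26, the latter at percentile 94.2 of PCGs. EXOSC6, the ring subunit encoded by a gene with 1 exon, had a TPM of 42.3 in Input, 64.5 with PABPC and 162 with PABPN. EXOSC9 had a TPM of 15.0 in Input, 15.6 with PABPC and 44.3 with PABPN. Their ratios of -1.13 and -1.31 placed them about as far to the PABPN side as EXOSC4 and EXOSC5 lay to the other. EXOSC7 and EXOSC8 lay between, at -0.09 and -0.32. Measured from the coding-length line described below, EXOSC1, EXOSC2, EXOSC3, EXOSC7 and EXOSC8 lay at -0.63, -0.80, 0.08, -0.34 and -0.61.

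The nucleases had similar values. DIS3, the processive exonuclease and endonuclease, had a TPM of 18.0 in Input, 20.3 with PABPC and 54.6 with PABPN. EXOSC10, the distributive nuclear exonuclease, had a TPM of 24.9 in Input, 29.1 with PABPC and 71.5 with PABPN. Both lay to the PABPN side, with log2 ratios between the IPs of -1.23 and -1.10.

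The nuclear exosome targeting complex joins MTREX, ZCCHC8 and RBM7, and its mRNAs were spread over much of the range. ZCCHC8, the zinc-knuckle scaffold, had the lowest PABPC IP TPM of the 38, with 5.74 in Input, 5.58 with PABPC and 22.4 with PABPN. RBM7, the RNA-binding subunit, had a TPM of 8.26 in Input, 15.9 with PABPC and 12.5 with PABPN. The log2 ratios between the IPs were -1.81 for ZCCHC8, -0.71 for the helicase MTREX and 0.54 for RBM7. Measured from the coding-length line described below, ZCCHC8, MTREX and RBM7 lay at -1.34, 0.07 and 0.22. ZFC3H1, outside the filter, had a TPM of 6.82 in Input and 20.3 in the PABPN IP, and a log2 ratio between the IPs of -1.94. MPHOSPH6, which helps dock MTREX on the exosome, lay at 0.43.

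The cap-linked factors connect the cap-binding complex with decay. The large cap-binding subunit NCBP1 had a TPM of 33.6 in Input, 37.0 with PABPC and 61.6 with PABPN. The small subunit NCBP2, which holds the cap itself, had a TPM of 23.5 in Input, 55.9 with PABPC and 38.5 with PABPN. The mRNAs of this heterodimer again lay on opposite sides, at -0.54 and 0.73. As distance from the coding-length line described below, NCBP1 and NCBP2 lay at 0.02 and -0.02, so they did not part on that scale. SRRT, the zinc-finger adaptor also called ARS2, and ZC3H18, which bridges the cap complex to the exosome, had log2 ratios between the IPs of -0.53 and -0.63. Their distances from that line were 0.11 and 0.08, so neither was on the PABPN side on that scale.

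A feature that the choice of genes did not use, coding length, was ordered with these ratios. Across the 38 mRNAs the Spearman correlation of coding length with the log2 ratio between the IPs was -0.737, and across 9601 PCGs it was -0.621. With the PABPC IP over Input it was -0.763 over the 38 and -0.66 over the PCGs, and with the PABPN IP over Input it was 0.473 and 0.412. These describe genes measured in the same libraries, which are not independent replicates. The longest coding sequences of the 39, 5967 nt in ZFC3H1, 5376 nt in RBBP6 and 5058 nt in PCF11, belonged to the 3 lowest ratios between the IPs, and EXOSC5 and EXOSC4, with the highest, had 705 and 735 nt. Other features were also correlated with the ratio between the IPs. Over the 38 mRNAs and over the PCGs, the values were -0.604 and -0.581 for exonic length, -0.486 and -0.369 for the number of exons, and -0.211 and -0.313 for total gene length.

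A coding length of 1000 nt, a limit chosen after the values were seen, divided the list sharply in the PABPC IP over Input. Of the 25 mRNAs at or over it, 20 lay below -0.5, which is 80.0% against 26.2% of PCGs of that length. Of the 13 shorter ones none lay below -0.5, against 2.63% of short PCGs, and none lay above 0.5, against 21.9%. Between the IPs, 18 of the 25 longer mRNAs lay below -0.5, against 43.2% of long PCGs, and none lay above 0.5, against 16.0%. Of the 13 shorter ones 5 lay above 0.5, against 58.1% of short PCGs, and 2 lay below -0.5, against 9.07%. The exosome and adaptors had a median coding length of 873 nt, the 3' end processing mRNAs 2052 nt and all PCGs 1320 nt.

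Coding length was then fitted as a straight line over the PCGs, again after the values were seen, and the distance of each mRNA from the line was taken. The members' median distance was -0.08 between the IPs, with -0.06 for 3' end processing and -0.29 for the exosome and adaptors. Of the 38, 11 lay below -0.5, against 22.9% of PCGs, and 6 above 0.5, against 26.2%. For the PABPC IP over Input the median distance was -0.36, with 10 of 38 below -0.5, against 7.60% of PCGs. Highest on this scale between the IPs were EXOSC5, CPSF3, PAPOLA and EXOSC4, at 0.84, 0.75, 0.73 and 0.65. Lowest were EXOSC6, ZCCHC8, RBBP6 and EXOSC9, at -1.43, -1.34, -1.24 and -1.23, and PCF11 and CSTF2T followed at -1.17 and -1.09. EXOSC6 and CSTF2T, the genes with 1 exon, thus lay below what their coding length gave. Before that fit, EXOSC6 and CSTF2T had ratios of -1.13 and -1.45, and 200 other PCGs with 1 exon had a median of -0.08, with 69 of them below -0.5.

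**Figure D3:**
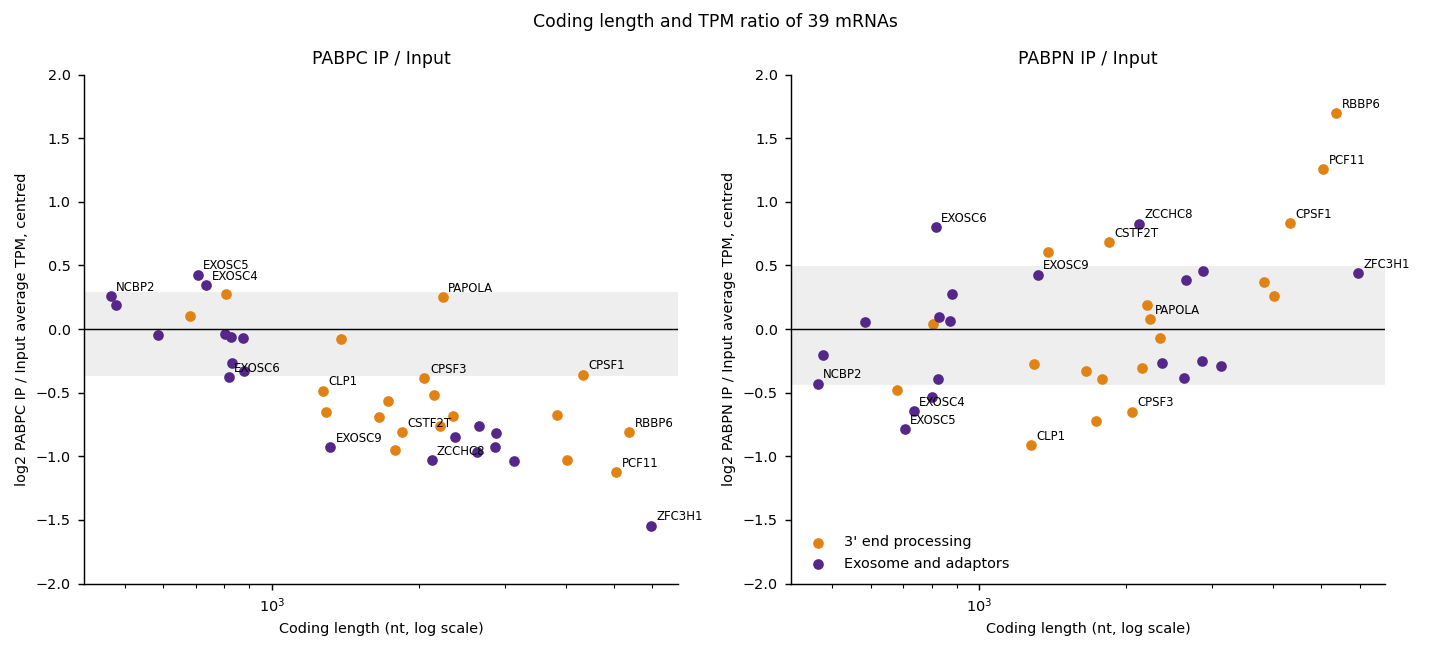
Coding length in nt on a log axis against the log2 TPM ratio of the PABPC IP over Input (left) and the PABPN IP over Input (right) for the 39 mRNAs, each relative to the median PCG, with points coloured by group and the grey band spanning the quartiles of 9607 PCGs. On the left no mRNA under 1000 nt lies below -0.5, and on the right RBBP6 and PCF11 stand highest, at 1.70 and 1.26.

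Ribosome contact was read from normalized EPKM, edits in RPS2-STAMP per unit of transcript length and mapped reads, less the editing of the control. An EPKM above 0 was found for 27 of 38 mRNAs in Input, against 78.1% of PCGs, for 34 in the PABPC IP, against 82.6%, and for 26 in the PABPN IP, against 72.9%. These shares lay near the background. Median EPKM of the 38 was 0.0177 in Input, 0.0340 with PABPC and 0.0414 with PABPN. Over the PCGs it was 0.0273 in Input, 0.0501 with PABPC and 0.0334 with PABPN. The order of the IPs was thus the other way round for the members, with the PABPN IP median above that of the PABPC IP, but their means had the same order as the PCGs, 0.0694 with PABPC and 0.0526 with PABPN. EPKM was higher in the PABPC IP for 16 of the 38, against 56.4% of PCGs, and higher in the PABPN IP for 20, against 37.4%. No difference in a single gene was tested, and on a 2-fold limit with 0.1 EPKM added these counts were 5 and 0, against 9.00% and 3.71% of PCGs. Per 100 TPM the members' median EPKM was 0.155 with PABPC and 0.0900 with PABPN, the order seen over PCGs, 0.138 and 0.0704, so the reversed order of the medians was not found on that scale. With 0.01 EPKM added, a 2-fold limit gave 13 mRNAs higher in the PABPC IP and 11 higher in the PABPN IP, against 36.3% and 21.1% of PCGs.

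The 3' end processing mRNAs carried more editing than the exosome mRNAs in Input, with a median EPKM of 0.0298 against 0.0117. With PABPN the medians of the groups were 0.0510 and 0.0260, and with PABPC they were closer, 0.0375 and 0.0310. All 19 3' end processing mRNAs had an EPKM above 0 in the PABPC IP, and so did 15 of the 19 exosome and adaptor mRNAs. The share of PCGs was 82.6%, which the exosome and adaptors lay near. Editing above 0 in Input and in both IPs was found for 12 of the former and 6 of the latter, together 47.4% of the 38 against 50.5% of PCGs. When means were taken the order turned in the PABPC IP, with 0.0675 for 3' end processing and 0.0712 for the exosome and adaptors. Medians of EPKM per 100 TPM were higher for 3' end processing in each fraction, with values of 0.217 and 0.0350 in Input, 0.157 and 0.117 in the PABPC IP, and 0.108 and 0.0718 in the PABPN IP.

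NUDT21 was among the most edited PCGs in each fraction, with an EPKM of 0.301 in Input, 0.237 with PABPC and 0.278 with PABPN, at percentiles 96.4, 96.5 and 98.8. PAPOLA was also even, at 0.126 in Input, 0.127 with PABPC and 0.115 with PABPN. Neither was even per 100 TPM. On that scale NUDT21 had 0.415 in Input, 0.154 with PABPC and 0.243 with PABPN, and PAPOLA had 0.243, 0.104 and 0.0956. CSTF3 was edited most with PABPN, at 0.0958 in Input, 0.0738 with PABPC and 0.186 with PABPN. CPSF1 was listed at 0.0160 in Input, 0.206 with PABPC and 0 with PABPN, and CPSF4 at 0.0708 in Input, 0.166 with PABPC and 0 with PABPN. How control editing was subtracted and how values came to be 0 are not given in the sources used here, and the number of reads behind each gene's value is unknown, so an entry of 0 is no measure of absence. RBBP6 and PCF11, which had the lowest partition of the 38, had EPKM of 0.000210 and 0 in Input. RBBP6 had 0.0184 with PABPC and 0.0445 with PABPN, but per 100 TPM it had 0.157 and 0.0600, the opposite order. PCF11 had 0.00944 with PABPC and 0.0631 with PABPN, and per 100 TPM 0.112 and 0.129.

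In the exosome group the extreme value belonged to EXOSC5, with an EPKM of 0.469 in the PABPC IP, percentile 99.2 of PCGs, and 0 in Input and in the PABPN IP. Per 100 TPM it was not extreme, with 0.246 in the PABPC IP, where EXOSC7 had the highest value of this group, 0.523. EXOSC5 was also the mRNA with the highest partition to PABPC. Its exons lie wholly opposite to a gene annotated only by readthrough transcripts, whose part in the value was not tested. EXOSC6 had an EPKM of 0.110 in Input, 0.185 with PABPC and 0 with PABPN. EXOSC2 had 0 in Input, 0.0783 with PABPC and 0.144 with PABPN. EXOSC8 and ZC3H18 were listed at 0 in all 3 fractions, with PABPN IP TPM of 53.7 and 24.0. NCBP1 had an EPKM of 0.127 in Input, 0.159 with PABPC and 0.0732 with PABPN. Its partner NCBP2 was listed at 0 in Input and the PABPC IP and at 0.0298 in the PABPN IP. SRRT had 0.134 in Input, 3.73e-05 with PABPC and 0.0973 with PABPN.

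**Figure D4:**
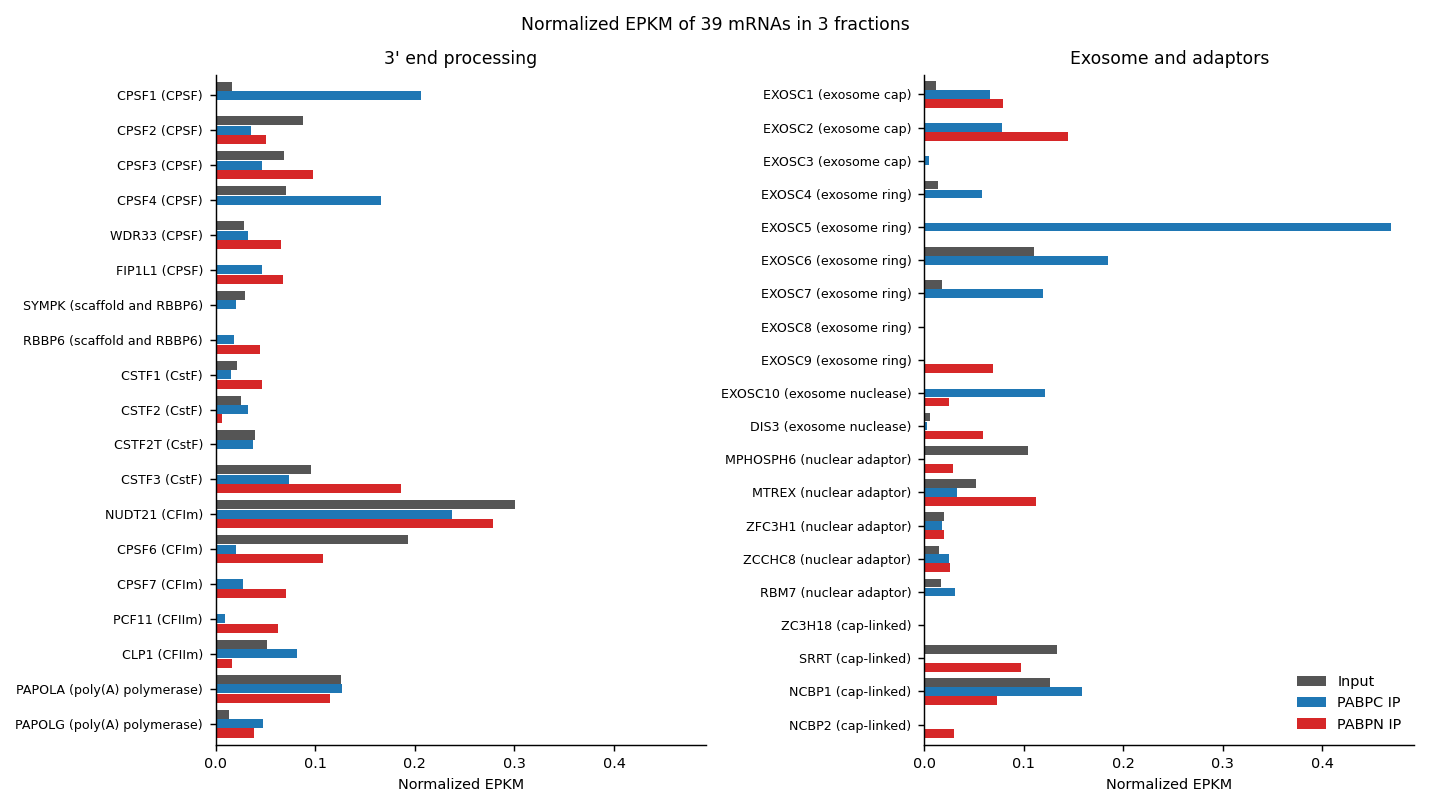
Normalized EPKM of each of the 39 mRNAs in Input (grey), the PABPC IP (blue) and the PABPN IP (red), with 3' end processing on the left and the exosome and adaptors on the right. EXOSC5 has the longest bar, 0.469 in the PABPC IP, NUDT21 has long bars in all 3 fractions, and EXOSC8 and ZC3H18 have none.

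Editing followed abundance loosely in this list. The Spearman correlation of EPKM with TPM of the same fraction over the 38 mRNAs was 0.291 in Input, 0.366 with PABPC and 0.0979 with PABPN, and over the 9607 PCGs it was 0.531, 0.452 and 0.245.

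Overlapping gene models may bear on several of these values, because the authors removed shared regions and readthrough transcripts from the annotation before counting. Their annotation was another release with added genes, so overlaps found here may be absent from it, and it may hold others. Of the 39 genes, 6 had at least 50% of their exonic bases on the same strand as another gene in GENCODE release 44. In 5 of them, RBM7, EXOSC3, FIP1L1, NUDT21 and EXOSC4, the other gene consisted only of readthrough transcripts. EXOSC7 shared 55.5% of its exonic bases with CLEC3B, so its TPM and EPKM rest on fewer bases if that region was removed. On opposite strands, CPSF4 was wholly and CSTF3 by 79.4% overlapped by other genes. The use of strand in counting is not given in the sources used here, and the effect of these overlaps was not tested.

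Genes that work beside these factors were then examined, with PCG shares of 31.5% below -0.5 and 30.4% above 0.5 between the IPs. Coding length, which was ordered with this ratio over PCGs, was not taken into account for these lists. Of 14 auxiliary 3' end factors, all of which passed the filter, 7 lay below -0.5 and 4 above 0.5 between the IPs, the latter close to the PCG share, with a median of -0.56. The lowest was CASP8AP2, a factor for histone mRNA 3' ends, at -2.08, and TUT1, a nuclear terminal uridylyltransferase, lay at -1.26. On the PABPC side were SUB1, a transcription coactivator that binds CstF, at 1.02, and SLBP, the histone stem-loop binding protein, at 0.95. The other called genes of this list were LSM11 at -1.01, PPP1R10 at -1.16, SCAF8 at -1.15, SCAF4 at -0.97, XRN2 at -0.66, LSM10 at 0.79 and SSU72 at 0.88. In the PABPN IP over Input 3 of the 14 lay above 0.5 and 2 below -0.5, and in the PABPC IP over Input 2 lay above and 6 below, against 24.5%, 21.6%, 8.37% and 18.1% of PCGs. Of 12 other nuclear exosome cofactors 11 passed, and 7 of these lay below -0.5 and 1 above 0.5, with a median of -1.07. KHDC4 and RBM26 had ratios of -2.52 and -2.35, and C1D, a small RNA-binding partner of EXOSC10, had 1.49. RBM27, PHAX, NCBP3, TENT4A and NAF1 had ratios of -1.14, -1.10, -1.09, -1.07 and -0.56. In the PABPN IP over Input 5 of the 11 cofactors lay above 0.5 and 1 below -0.5, against 24.5% and 21.6% of PCGs. In the PABPC IP over Input 0 lay above 0.5 and 7 below -0.5, against 8.37% and 18.1%. Among these 7 were ZC3H3 at -0.76 and ZCCHC7 at -0.55, which were called by that ratio alone. The cytoplasmic exosome and Ski complex list has 9 symbols for 6 genes, since 3 are newer names of genes also listed under older ones. All 6 genes were found and 5 passed, with 3 below -0.5 and 1 above 0.5 between the IPs. In the PABPN IP over Input 3 of the 5 lay above 0.5 and 0 below -0.5, and in the PABPC IP over Input 0 lay above and 1 below. SKIV2L, the cytoplasmic counterpart of MTREX, lay at -2.07, TTC37, the scaffold of the Ski complex, at -1.11 and the nuclease DIS3L at -0.82. HBS1L, a ribosome rescue factor, lay at 0.51, and the Ski subunit WDR61, not called by any ratio and named after its value was seen, at 0.22.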

How the data were processed

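Strand-specific libraries of ribosomal RNA-depleted RNA were aligned by the authors to hg38 with STAR, and per the labels reads were counted with featureCounts 2.0.2. The deposited normalized EPKM is a signal the authors made from edits with a confidence score of at least 0.5, less the editing of the control condition, with no value below 0. The deposited TPM is the authors' average per fraction of summed exonic and intronic TPM, on an annotation without overlapping regions and readthrough transcripts. Which samples entered each average is not given in the sources used here. The authors' methods state a minimum and a mean library size over these libraries. The table keeps no read counts, so the reads behind each gene's value and the precision they give are unknown.

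From these values, log2 TPM ratios were computed for PCGs that reached a TPM of 5 in each IP, centred on their median and called past 0.5, after a check on simulated data. No test was run. Every listed gene was named, and genes of 3 wider lists were named where called by a ratio, with WDR61 as an exception. The members and lists were chosen with earlier results of these data known. Coding lengths, exons and overlaps came from GENCODE release 44, which shares the authors' build but is not the release they counted on. Windows came from the ends of the partition order among mRNAs with a hexamer, leaving out chromosome 8 and so EXOSC4. Protein identity between paralogues was not analysed here. Alternatives changed the filter, centring, thresholds, pseudocounts and summaries. Scripts ran in Python 3.11.15 with pandas 2.3.3, NumPy 2.4.6 and SciPy 1.17.1, and plots were drawn with matplotlib 3.10.9.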

Additional observations from a re-analysis of the deposited data

How the results depend on the processing

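No paired analysis was possible because only averages per fraction were used, and for the same reason no replicate was left out. A count was taken as unmoved within 1.5 times, a log2 value within 0.1 and an EPKM within 1.5 times. The cause of the changes was not tested, beyond what each alternative's own construction gives. The reads behind each gene's value are unknown, which limits most the mRNAs near a TPM of 5 and EPKM listed at 0.

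A pseudocount of 0.5 TPM left all 18 results on TPM ratios unmoved, a limit of 0.01 EPKM left all 3 counts of edited mRNAs unmoved, and use of all listed mRNAs left all 17 EPKM results unmoved. Without centring, the PABPN IP over Input had 33 mRNAs above 0.5 and 0 below -0.5, against 84.6% and 0.583% of PCGs. Its medians were 1.12 for all members and 0.93 for the exosome and adaptors. The PABPC IP over Input then had 18 above and 0 below, against 81.3% and 0.885% of PCGs. Its medians were 0.45 for all members, 0.34 for 3' end processing and 0.66 for the exosome and adaptors. The PABPC IP over the PABPN IP had 3 above, against 23.0% of PCGs, with a median of -0.72. With TPM rescaled to a common total and no centring, the PABPN IP over Input had 31 above and 0 below, against 75.7% and 1.08% of PCGs. Its medians were 0.93 for all members and 0.74 for the exosome and adaptors. The PABPC IP over Input had 13 above and 0 below, against 69.4% and 1.73% of PCGs. Its medians were 0.22 for all members, 0.12 for 3' end processing and 0.44 for the exosome and adaptors. The PABPC IP over the PABPN IP had 3 above, against 21.8% of PCGs, and a median of -0.75.

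A threshold of 1 left 2 mRNAs above and 0 below in the PABPN IP over Input, against 8.86% and 5.15% of PCGs. It left 4 below in the PABPC IP over Input, against 4.42%, and 2 above and 11 below between the IPs, against 12.7% and 17.4%. With the TPM limit lowered to 1 in each IP, the 3' end processing median of the PABPN IP over Input was -0.0626 and the groups differed by 0.12, while between the IPs 8 lay above and 15 below, against 31.4% and 33.2% of PCGs, and the median was -0.40. With every gene above 0 TPM, the PABPN IP over Input had 11 below, against 24.8% of PCGs, a 3' end processing median of -0.12, a median over members of -0.12 and a difference of 0.12. The PABPC IP over Input had 1 above, against 11.7%, and between the IPs 9 lay above and 13 below, against 32.2% and 34.2%, with a median of -0.32.

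The distance from the coding-length line was added after the data were seen. On that scale the PABPN IP over Input had 6 above and 10 below, against 20.3% and 19.7% of PCGs. Its medians were -0.14 for all members, -0.23 for 3' end processing and 0.0634 for the exosome and adaptors, with a difference of -0.29. The PABPC IP over Input had 1 above and 10 below, against 5.80% and 7.60% of PCGs, with a median of -0.36 and a difference of 0.0299. Between the IPs 11 lay below, against 22.9% of PCGs, with a median of -0.0796 and a difference of 0.24.

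Without CSTF2T and PAPOLG, the 3' end processing median of the PABPN IP over Input was -0.0739, the groups differed there by 0.13 and between the IPs by 0.20, and they differed by 0.00403 EPKM in the PABPC IP. Means in place of medians made the group differences 0.14 in the PABPN IP over Input, -0.14 in the PABPC IP over Input and -0.28 between the IPs. Mean EPKM was 0.0468 in Input and 0.0694 in the PABPC IP, and the groups' means differed by 0.0296 EPKM in Input and -0.00377 in the PABPC IP. Per 100 TPM, the group medians of EPKM differed by 0.182 in Input, 0.0399 with PABPC and 0.0367 with PABPN. On a 2-fold limit with 0.1 EPKM added, 5 mRNAs were higher with PABPC and 0 with PABPN, against 9.00% and 3.71% of PCGs. With 0.01 EPKM added 13 were higher with PABPC and 11 with PABPN, against 36.3% and 21.1%, so the larger of these counts changed sides.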

Other observations

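Markers of other cell types were looked up as a check on the cell line. Of the 4 markers PTPRC, ALB, COL1A1 and PECAM1, the table used here lists COL1A1, with a TPM of 1.90 in Input, 2.15 with PABPC and 4.42 with PABPN, all under the filter of 5. Its normalized EPKM was 0.0206 in Input, 0.0295 with PABPC and 0.566 with PABPN.

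Among the factors for replication-dependent histone mRNA ends, SLBP was listed at an EPKM of 0.117 in Input and at 0 in both IPs. LSM10, a U7 snRNP subunit, had an EPKM of 0.0511 in Input, 0.241 with PABPC and 0.0319 with PABPN. The U7 subunits differed in partition, with log2 ratios between the IPs of 0.79 for LSM10 and -1.01 for LSM11.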
